A study of Mus musculus with 15 samples.

Results

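Cortex in which microglia had been allowed to return was compared with cortex still under depletion. The members are the 10 libraries labelled as microglia depletion (5 mice, here the PLX3397 group) and as the microglia-repopulated condition (5 mice), out of 15 libraries in the series, and all genes were followed: 18369 of the 53278 symbols in the deposited count table held enough reads to be tested. All mice were male C57BL/6J animals bought from a supplier, 10 to 20 weeks old per the labels, with no transgene named, and the tissue was brain cortex, from which bulk total RNA was sequenced. The depleted mice ate food with PLX3397 for 9 days. The repopulation mice ate the same food for 9 days and control food for another 9 days. The other 5 mice ate control food and serve here only as the reference level of each gene. Each library came from a separate mouse, so the replicates are animals. The repopulation mice ran through a longer schedule than the depleted ones, and inhibitor withdrawal and the added time cannot be told apart.

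PLX3397, given in food, blocks the kinase CSF1R, and signals from its ligands CSF1 and IL-34 keep microglia alive. Microglia, the macrophages of the brain parenchyma, derive from the yolk sac. When the inhibitor is withdrawn, the few that survive divide and refill the tissue, and new microglia pass through an activated state before they take up the homeostatic programme again. The series concerns how microglia shape the reactivity of brain vessels through the ectonucleotidase CD39, so that the repopulation group asks whether what depletion removed comes back.

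The total count was 23413551 to 29482140 reads per library on PLX3397, 26837517 to 29582274 after repopulation and 24347802 to 48617851 in control. At 1 CPM (counts scaled to library size with its TMM factor) a gene rests on 23.2 to 48.8 reads per mouse. The labelled tissue carried its markers: Slc17a7, the vesicular glutamate transporter of cortical projection neurons, had a median of 1296 CPM on PLX3397 and 1314 CPM after repopulation, and Tbr1, a transcription factor of deep-layer neurons, 178 and 171 CPM. The first principal component (40.4% of the variance) placed the PLX3397 libraries at 38.9 to 40.0 and the repopulation libraries at -23.4 to -20.6. Among the libraries compared, 2 stood apart. PLX3397 mouse 5 had the smallest total and lay at -18.0 on the second component. Repopulation mouse 4 had 479.6 CPM of Ttr, a marker of choroid plexus, the tissue that makes cerebrospinal fluid, against a group median of 3.62 CPM. The PLX3397 libraries carried Ttr as well, at 4.39 to 179 CPM with a median of 69.8 CPM.

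Across the genes tested, 1398 (7.61%) were called higher and 1649 (8.98%) lower after repopulation than on PLX3397, at a Benjamini-Hochberg adjusted p under 0.05 in the quasi-likelihood F test of edgeR, the source of every adjusted p below. The gains and the losses differed in size. The median change of the higher genes was 0.33 log2 units, and 331 of them rose by at least 1 log2 unit. The lower genes had a median fall of 0.20 log2 units, and 1592 of the 1649 fell by less than 0.5. Of the 331 genes with large gains, 115 belonged to a myeloid list, 32 to a list of interferon-responsive or MHC class I genes, and 171 to no list. The 13 genes with a fall of at least 1 log2 unit included the cell division genes Ube2c, Top2a, Cenpf and Aspm. The rest of the 13 are not described here. Ube2c was under 1 CPM in every mouse of both groups, and its groups overlapped. The median change of all genes was 0.00. The shares of all genes called, 7.61% higher and 8.98% lower, are the background for the list counts below.

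**Figure D1:**
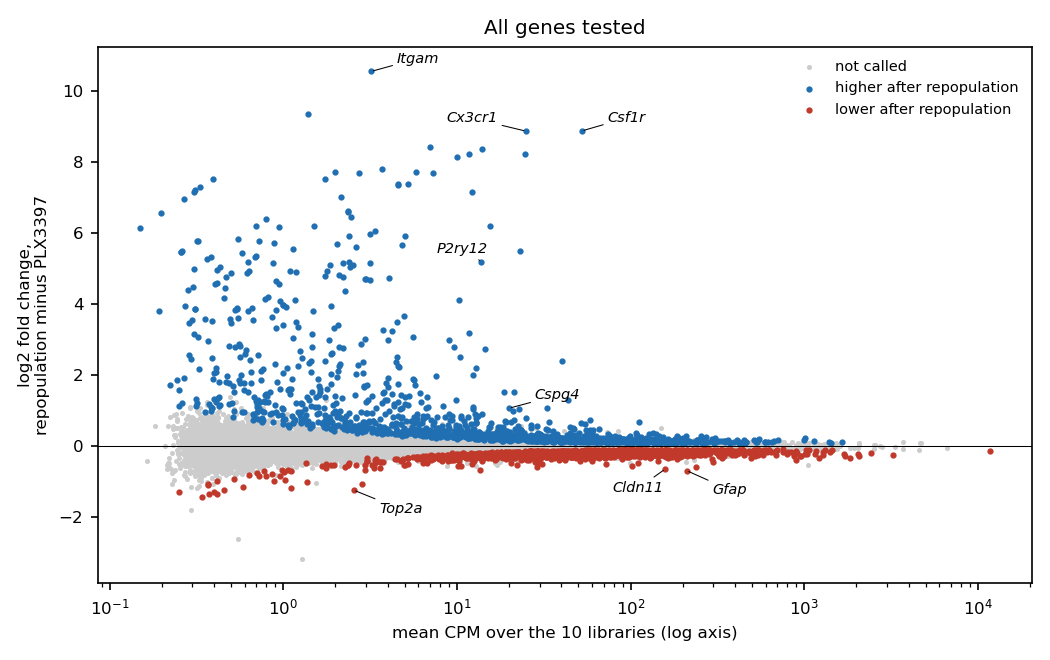
Each point is 1 of the 18369 genes tested, with its mean CPM over the 10 libraries on the x axis (log axis) and its change from PLX3397 to repopulation on the y axis (log2 units); coloured points passed the test, blue for higher and red for lower. Microglial genes reach far above 0, and all but 13 of the red points lie within 1 log2 unit of 0.

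Genes that mark microglia were almost absent on PLX3397 and back near the control level 9 days after withdrawal. Csf1r (chr18:61100598-61132149, GRCm38), the target of the drug, measured 0.427, 0.176, 0.174, 0.171 and 0.129 CPM in the 5 depleted mice and 98.9, 105, 106, 102 and 113 CPM in the 5 repopulation mice. The group means lay 487-fold apart and the groups did not overlap, and the change was 8.88 ± 0.10 log2 units (SE, edgeR adjusted p = 1.87e-28). Its mean after repopulation was 124% of control, a rise above control as well (0.31 log2 units, edgeR adjusted p = 5.1e-05). Cx3cr1 (chr9:119901616-120069879), the fractalkine receptor through which neurons signal to microglia, measured 0.0712, 0.176, 0.0697, 0 and 0.215 CPM on PLX3397 and 49.6, 49.7, 49.0, 49.2 and 51.5 CPM after repopulation. The returned values were nearly identical between mice, and they lay within the range of the control mice (40.6 to 52.6 CPM).

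P2ry12 (chr3:59216272-59262871), the ADP receptor that directs microglial processes to injury, measured 0.534, 0.846, 0.697, 0.820 and 0.731 CPM on PLX3397 and 27.6, 27.0, 27.7, 24.9 and 27.4 CPM after repopulation. All depleted mice were below 1 CPM and all repopulation mice above 24 CPM, a change of 5.20 ± 0.09 log2 units (edgeR adjusted p = 3.65e-24). Tmem119 (chr5:113793729-113800516), a surface protein of parenchymal microglia, measured 1.28, 1.13, 1.15, 1.23 and 0.731 CPM and then 17.5, 20.6, 19.8, 20.9 and 18.8 CPM. Its mean returned to 102% of control, and its test against control did not pass (edgeR adjusted p = 0.815). In bulk tissue, fewer cells of a type and less RNA per cell cannot be told apart, here and in all that follows. In the annotation Csf1r shares bases with Hmgxb3, P2ry12 with Med12l and Cx3cr1 with several neighbours, and whether counting used strand is not given in the sources used here.

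**Figure D2:**
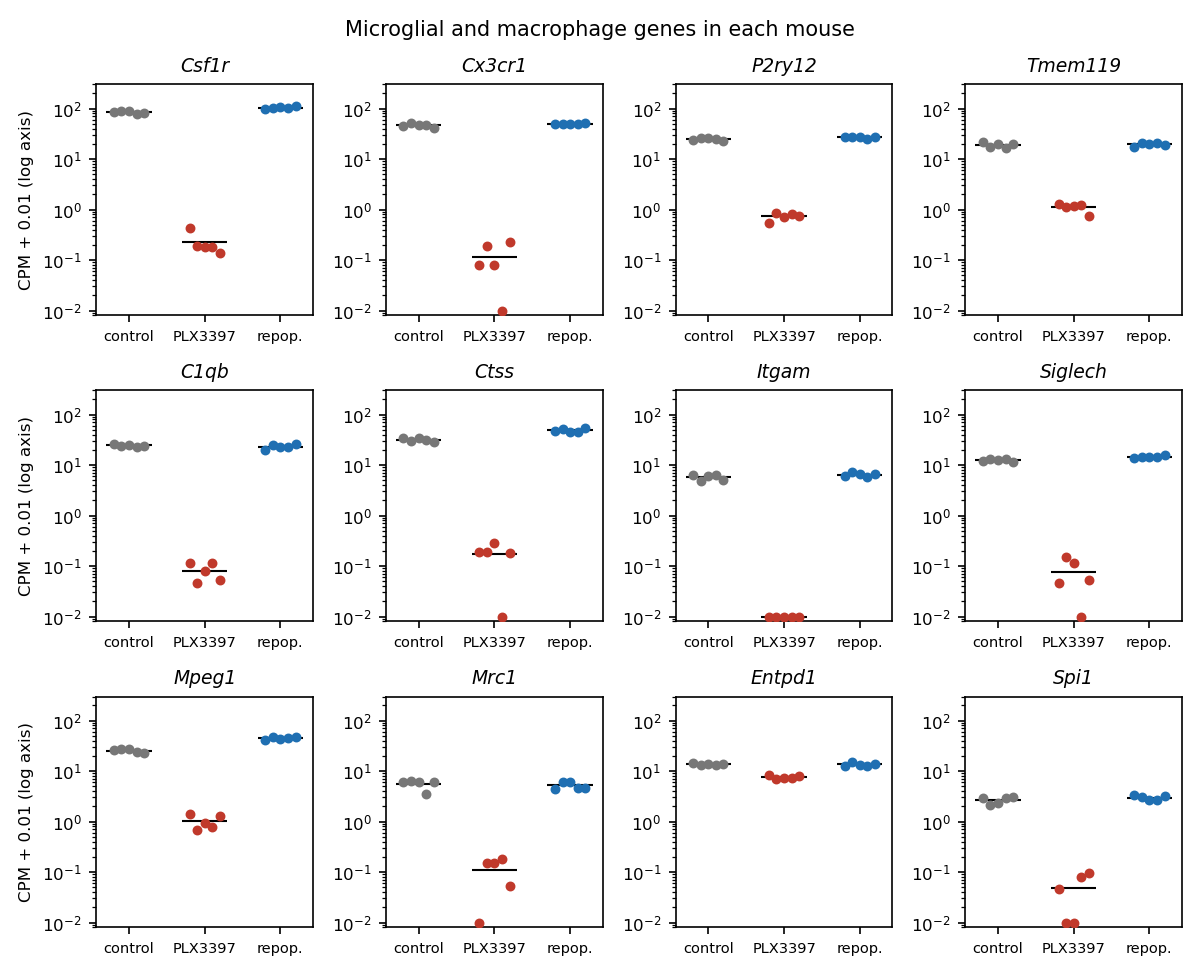
Level (CPM plus 0.01, log axis) of 12 microglial and macrophage genes in each of the 15 mice, by group; points are mice and bars are group means. In most of these panels the PLX3397 points lie far below the other 2 groups. Csf1r stood at 0.129 to 0.427 CPM on PLX3397 and 98.9 to 113 CPM after repopulation. The gap is much smaller for Entpd1, whose mean on PLX3397 was 55.3% of control.

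The list of homeostatic microglial genes held 24 members, and all 24 were tested. After repopulation 22 rose (91.7%, against 7.61% of all genes), none fell, and the 22 did not overlap between groups (5.57% of all genes were higher without overlap). The median member stood at 8.005% of control on PLX3397 and at 102.5% after repopulation. P2ry13, another ADP receptor, went from 0 to 0.105 to 7.82 to 9.82 CPM, and the lectin Siglech from 0 to 0.141 to 13.6 to 15.7 CPM. The 2 members that did not pass the test, Bin1 (-0.04 log2 units) and Rtn4rl1 (0.04 log2 units), stood at 93.5% and 89.0% of control on PLX3397.

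Within this programme the return was uneven. Over the 74 homeostatic and pan-myeloid genes, 68 rose, 67 of them without overlap, and the median levels hid a spread from 44.6% to 257% of control. Against control, 38 genes returned to 80 to 120%, 4 stayed under 80%, 23 lay above 120 and up to 150%, and 9 lay above 150%; 5 were called lower than control and 26 higher, where 15.2% and 13.9% of all genes were. The low end, chosen after its values were seen, held Crybb1, a crystallin gene expressed by microglia, at 44.6% of control (edgeR adjusted p against control = 3.6e-05), and Fcrls, an Fc receptor-like scavenger gene of microglia, at 50.7% (edgeR adjusted p against control = 6.08e-07). Slc2a5, the fructose transporter, stood at 76.2% and Gpr34, a lysophosphatidylserine receptor, at 77.6%, and neither passed the test against control (edgeR adjusted p = 0.0592 and 0.0587).

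The high end, also chosen after its values were seen, held Cd52, a small surface glycoprotein of leukocytes, at 257% of control (edgeR adjusted p against control = 7.92e-05). Ptprc, the CD45 phosphatase, stood at 183% (edgeR adjusted p against control = 5.04e-05). Mpeg1, the pore-forming perforin-2 of macrophages, rose from 1.42, 0.670, 0.906, 0.785 and 1.29 CPM on PLX3397 to 42.1, 47.2, 44.0, 44.3 and 48.3 CPM after repopulation, and every repopulation mouse exceeded the control range of 23.2 to 27.8 CPM. Ctss, a lysosomal cysteine protease that trims antigens, measured 0.178, 0.176, 0.279, 0 and 0.172 CPM and then 46.8, 52.9, 46.0, 45.0 and 54.7 CPM, again above the control range (28.3 to 34.2 CPM). Csf3r, the G-CSF receptor, reached 159% of control.

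**Figure D3:**
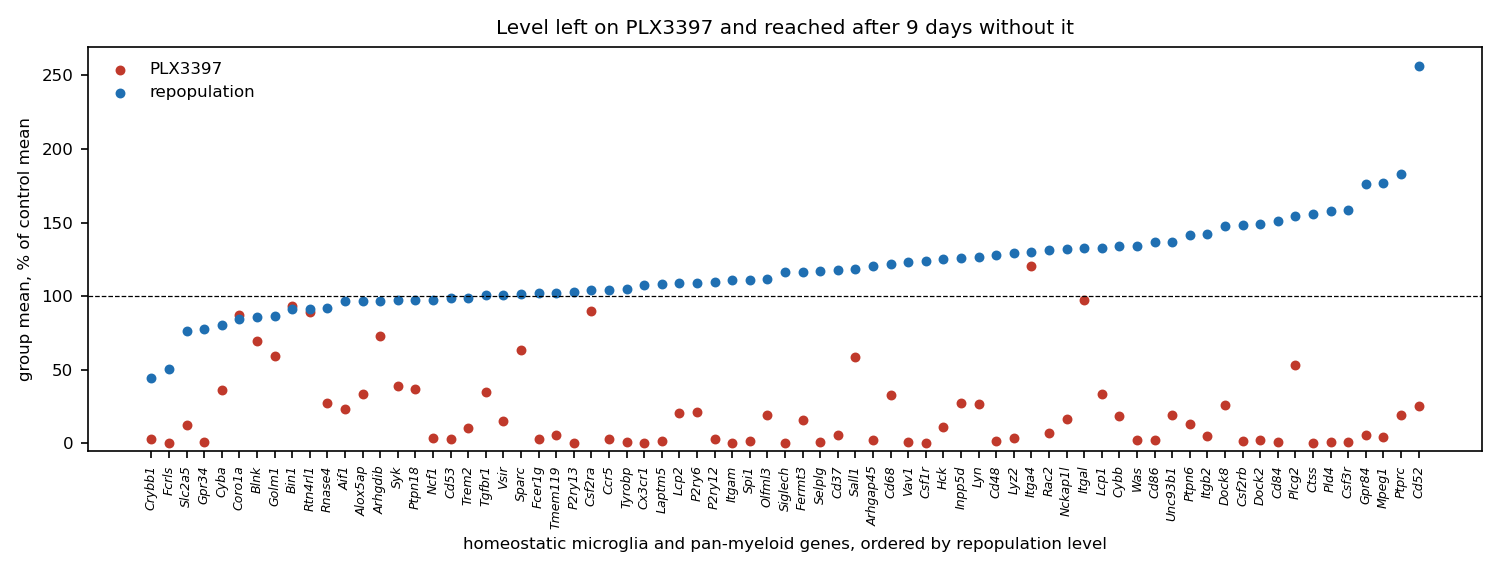
Level of 73 of the 74 homeostatic and pan-myeloid genes as a percentage of the control mean (y axis), ordered along the x axis by the repopulation level, with red points for PLX3397 and blue points for repopulation. The red points lie mostly near 0, and the blue points spread from 44.6% to 257% of control, with 37 of those plotted between 80 and 120%.

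Of 24 listed transcription factors of microglia, 23 were tested, 12 rose (52.2%, against 7.61% of all genes), none fell and 11 did not pass the test. The median change was 0.30 log2 units, and the median member stood at 82.2% of control on PLX3397. Mef2c and Mef2a, which neurons also express, stood at 113% and 112% of control on PLX3397 and were among the 11. Spi1 (chr2:91082390-91115756), which encodes PU.1, the factor that myeloid development requires, measured 0.0356, 0, 0, 0.0683 and 0.0860 CPM on PLX3397 and 3.34, 3.05, 2.67, 2.63 and 3.17 CPM after repopulation. The groups were far apart (6.20 ± 0.32 log2 units, edgeR adjusted p = 3.96e-14), and the returned mean was 111% of control. Irf8, which acts with PU.1, rose by 2.98 ± 0.15 log2 units and Sall1, a repressor that keeps microglia from other macrophage fates, by 1.01 ± 0.06. Sall1 kept 58.8% of its control level on PLX3397, when Spi1 kept 1.42%.

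Surface receptors and effectors of macrophages followed. No read of Itgam, the CD11b integrin chain that forms complement receptor 3, was counted in any depleted mouse, and the repopulation mice had 6.00, 7.19, 6.53, 5.79 and 6.65 CPM. Against a floor of 3 reads over the PLX3397 group, this is at least 295-fold higher. Tlr13, a receptor for bacterial ribosomal RNA, was also at 0 reads on PLX3397 and at 2.43, 2.48, 3.45, 2.81 and 2.82 CPM after repopulation, at least 128-fold higher. Of 17 Toll-like receptor genes and partners, 15 were tested and 13 rose, with a median of 2.81 log2 units. Cd180, an LPS-sensing relative of the Toll-like receptors, reached 202% of control.

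The complement list had 18 tested genes of 19, of which 9 rose and 1 fell. C1q, the recognition part of the classical pathway, followed the microglial genes. C1qb (chr4:136880129-136886187), which encodes its B chain, measured 0.107, 0.0353, 0.0697, 0.102 and 0.0430 CPM on PLX3397 and 20.0, 25.2, 22.4, 22.3 and 26.4 CPM after repopulation. The groups did not overlap (8.24 ± 0.16 log2 units, edgeR adjusted p = 1.74e-23), and the returned mean was 95.3% of control. C1qa and C1qc, the other chains, rose by 8.16 ± 0.25 and 8.37 ± 0.20 log2 units. C3, the central complement protein, did not pass the test (0.24 log2 units). C4b was the lower gene (-0.39 log2 units, edgeR adjusted p = 0.0431), a call that was lost in most of the fits that left out 1 mouse.

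The C1q genes lie next to each other on chromosome 4. A PU.1 motif was looked for in promoters of named genes of the homeostatic, pan-myeloid, transcription factor, complement and Toll-like receptor lists. The promoters of some named genes were not part of this search. That of C1qc is shown because it was the only one with a match among those searched. The window, from RefSeq on GRCm38.p6 at chr4:136893072-136893139 on the minus strand, has in capitals the letters GAGGAAGT as read on the other strand.
C1qc: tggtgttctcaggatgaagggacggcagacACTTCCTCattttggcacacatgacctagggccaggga
GAGGAAGT, searched on both strands of the 250 bases before each start, was found in 3 of the 37 pan-myeloid genes with a promoter in the table (8.11%), in none of 15 homeostatic genes, and in 2.62% of the 12630 tested genes with one. The share was not taken for the complement list, which holds C1qc. A match is only a run of letters, and no binding was measured here.

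The Fc receptor and TREM2 list had 16 tested genes of 21, and 15 rose. Since many of these genes could pass the filter on low counts only through the groups where they are high, this count does not bear on the 5 genes that were not tested. The same limit holds for the other myeloid lists with members that were not tested. Tyrobp, the DAP12 adaptor that carries the signal of TREM2, went from 0 to 0.107 CPM to 4.18 to 5.50 CPM, and Trem2, a lipid receptor, from 0.473 to 1.25 to 7.08 to 8.41 CPM. Cd33, a sialic acid-binding inhibitory receptor, rose by 8.43 ± 0.22 log2 units and reached 142% of control. The list's median change was 4.09 log2 units, or 3.88 with the 2 genes at 0 reads set at their bound.

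Genes of activated and disease-associated microglia did not move as a block. Of 42 listed, 32 were tested and 17 did not pass the test. There were 12 that rose (37.5%, against 7.61% of all genes). The 3 that fell (9.38%) were near the 8.98% of all genes. The median change was 0.19 log2 units. The median member stood at 90.1% of control on PLX3397 already, and at 100.2% after repopulation. Which cells gave the signal that remained on PLX3397 was not tested. The number that fell was 5 in DESeq2's test, without the filter, with length and GC trends removed and without PLX3397 mouse 4 or 5. Against control 6 members were called higher and 7 lower. Itgax, the CD11c integrin chain, measured 0.0356, 0.0353, 0.139, 0.102 and 0 CPM on PLX3397 and 0.708, 1.02, 0.927, 0.995 and 1.29 CPM after repopulation, against 0.195 to 0.328 CPM in control. All 5 repopulation mice were above every control mouse, and the mean was 355% of control (edgeR adjusted p against control = 5.75e-05). Clec7a, the beta-glucan receptor dectin-1, reached 274% of control. Apoe, the lipid carrier, changed by -0.16 log2 units, Lpl by -0.07, Gpnmb by -0.07 and Spp1 by 0.20, and none of these 4 passed the test. Apoe was called lower than control, at 79.9% (edgeR adjusted p against control = 0.000164). Clec7a and these 4 were chosen after their values were seen. Outside this list, Lag3, a checkpoint receptor that binds MHC class II, rose to 199% and Slc11a1, the phagosomal metal transporter NRAMP1, to 185% of control. Cst7, Il1b, Tnf, Ccl2, Ccl3 and Ccl4 were too low to test.

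Border macrophages, which line the meninges and vessels and also use CSF1R, gave 10 tested genes of 19. Of these 8 rose, with a median level of 15.9% of control on PLX3397 and 110% after repopulation. Without the filter on low counts 12 rose. Low genes could pass that filter only through the groups where they are high, so these values describe the tested members only. Mrc1, the mannose receptor CD206, measured 0, 0.141, 0.139, 0.171 and 0.0430 CPM and then 4.42, 5.97, 6.16, 4.69 and 4.63 CPM. No depleted mouse reached 1 CPM, and the returned mean was 92.1% of control. Stab1, a scavenger receptor, went from 1.81 to 3.59 to 19.6 to 23.1 CPM. Lyve1, another marker of these cells, went from 0.0348 to 0.478 CPM to 1.11 to 1.87 CPM. The marker Cd163 kept more of its level, with 1.30 to 2.71 CPM on PLX3397 and 2.76 to 3.50 CPM in control. Its 2.13 to 3.93 CPM after repopulation overlapped the PLX3397 values. Siglec1 (CD169), a sialic acid receptor that interferon also induces, overshot: 1.58, 1.76, 1.74, 1.24 and 1.53 CPM after repopulation against 0.0976 to 0.651 CPM in control, or 413% of the control mean (edgeR adjusted p against control = 1.64e-05).

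MHC class II genes, which present exogenous antigen, rose in 8 of 10 cases, and in 5 when the fit held only the 10 libraries compared. The invariant chain Cd74 measured 1.17, 1.06, 0.975, 1.71 and 1.12 CPM on PLX3397 and 2.73, 3.93, 3.12, 2.91 and 2.96 CPM after repopulation. These groups did not overlap, and the mean was 78.9% of control. H2-Ab1, a class II beta chain chosen after its values were seen, reached 41.9% of control and was still called lower (edgeR adjusted p = 0.00205). H2-Oa, a class II chain that modulates peptide loading, rose from 1 positive mouse to 0.641, 0.373, 0.668, 0.426 and 0.487 CPM, at 352% of control, on levels of a few reads per library.

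Among the ligands and cytokines, 22 of 33 genes were tested, 6 rose (27.3%) and 2 fell (9.09%, near the 8.98% of all genes). Of the CSF1R ligands, Csf1 changed by -0.00 log2 units and did not pass the test, and Il34, the neuronal ligand, fell by 0.18 log2 units (edgeR adjusted p = 0.0219), a call that was lost without PLX3397 mouse 1 and with length and GC trends removed. Tgfb1, a factor that microglia make and need, measured 2.31, 1.52, 1.57, 1.81 and 1.63 CPM on PLX3397 and 4.89, 5.90, 6.19, 5.90 and 7.38 CPM after repopulation. Every repopulation mouse was above every depleted mouse (1.77 ± 0.13 log2 units, edgeR adjusted p = 8.46e-11), and the mean was 110.4% of control. Il10ra, the binding chain of the interleukin-10 receptor, rose by 2.39 ± 0.12 log2 units to 142% of control.

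Markers of blood leukocytes were measured beside these genes. Of 20 listed genes only 3 passed the filter and none was called, and their summed level was 33.7 to 43.7 CPM on PLX3397 and 42.9 to 47.7 CPM after repopulation. Ccr2, the monocyte chemokine receptor, gave 3 reads in the whole PLX3397 group, 43 in the repopulation group and 50 in control. Ly6c2 gave 4 and 5 reads, S100a8 gave 2 and 2, and the neutrophil marker Ly6g gave 0 in both groups.

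A further group of higher genes belonged to the interferon response, in which type I or II interferon acts through receptor-bound JAK kinases and switches on antiviral genes. Of 68 interferon-induced genes, 64 were tested, 52 rose (81.3%, against 7.61% of all genes) and none fell, and 45 of them did so without overlap (5.57% of all genes were higher without overlap). The median change was 0.78 log2 units. The median member stood at 88.0% of control on PLX3397 and at 147% after repopulation. Against control 48 of the 64 were called higher and 1 lower.

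Ifit3 (chr19:34583531-34588731), which restricts translation of viral RNA, measured 5.30, 4.87, 5.40, 5.94 and 4.39 CPM on PLX3397 and 9.44, 11.2, 11.9, 10.6 and 14.4 CPM after repopulation, with 4.69 to 6.31 CPM in control. All 5 repopulation mice lay above every depleted and every control mouse. The change from PLX3397 was 1.15 ± 0.11 log2 units (edgeR adjusted p = 1.2e-08) and that from control 1.13 log2 units (adjusted p = 4.86e-07). Parp14, a mono-ADP-ribosyltransferase, measured 2.70, 2.47, 2.19, 4.03 and 2.49 CPM and then 7.15, 6.99, 7.97, 7.14 and 7.07 CPM. Lgals9, the lectin galectin-9, measured 2.35, 2.64, 2.47, 2.83 and 2.45 CPM and then 7.65, 5.66, 7.20, 6.86 and 7.38 CPM. Both stood under their control means on PLX3397 (at 59.6% and 51.8%) and both ended above them (156% and 141%).

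The level that the members kept on PLX3397 varied. There, 19 of the 64 genes stood under 80% of control and 45 at 80 to 120%. Of the 19, 18 rose, and of the 45, 34 rose; since the PLX3397 level sorts the genes and also enters the change, the counts are a description only. Ifi207, a DNA-sensing family member of the kind found in macrophages, went from 2.17% to 159.7% of control. Irf7, the amplifier of the type I response, stood at 106% and then 268% of control, and Usp18, the brake on the interferon receptor, at 102% and 219.5%. Isg15, a ubiquitin-like modifier, went from 107% to 159.7%; these 3 were chosen after their values were seen. Ifnb1 and Ifng, which encode interferons themselves, did not hold enough reads to be tested.

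The interferon-inducible GTPases of the guanylate-binding and immunity-related families, which attack membranes around pathogens, rose in 10 of 14 tested cases. Gbp3 measured 3.52, 3.03, 3.31, 4.82 and 3.70 CPM on PLX3397 and 7.38, 10.3, 7.86, 7.32 and 10.7 CPM after repopulation. All repopulation mice were above all depleted mice, and the mean was 202% of control. Gbp7 rose by 0.77 ± 0.09 log2 units. Reads of close paralogs, such as Ifit3 and Ifit3b or the guanylate-binding genes, can be shared between copies, so single members are less certain than the group.

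MHC class I genes, which present peptides from inside the cell and are interferon targets too, followed in part. Of 23 genes 13 rose (56.5%, against 7.61% of all genes). The 2 that fell (8.70%, against 8.98%) were the chaperones Calr and Pdia3, and these calls were lost with length and GC trends removed. B2m, the light chain of every class I molecule, measured 45.6, 44.6, 44.7, 46.8 and 37.5 CPM on PLX3397 and 77.1, 73.5, 68.9, 68.6 and 76.0 CPM after repopulation. The groups did not overlap (0.73 ± 0.05 log2 units, edgeR adjusted p = 3.33e-11), and the level went from 76.0% to 126% of control. H2-D1, a class I heavy chain, rose by 0.68 ± 0.07 log2 units to 143% of control. Nlrc5, the transactivator of class I genes, rose to 197%, and Psmb8, a subunit of the immunoproteasome, to 129% of control. The chemokine Cxcl10, which draws T cells, went from 0 to 0.244 to 0.604 to 1.19 CPM.

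Promoter windows of 6 of these genes are shown because the members moved together and the element through which ISGF3 and IRF factors act has known letters. They come from RefSeq on GRCm38.p6, in the direction of the gene, and capitals mark the core of the interferon-stimulated response element on either strand, which is GAAA, 2 bases of any kind and GAAA. Gbp3 holds 2 matches that overlap, and both are in capitals. The windows are chr19:34583377-34583446 (plus strand), chr1:173741811-173741880 (minus), chr11:78984940-78985009 (minus), chr3:142559975-142560043 (plus), chr3:142530253-142530322 (plus) and chr2:122147518-122147587 (plus).
Ifit3: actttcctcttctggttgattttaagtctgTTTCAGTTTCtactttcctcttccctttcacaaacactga
Ifi207: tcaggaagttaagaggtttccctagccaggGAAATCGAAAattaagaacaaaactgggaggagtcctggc
Lgals9: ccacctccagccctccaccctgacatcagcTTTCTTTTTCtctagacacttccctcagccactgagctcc
Gbp3: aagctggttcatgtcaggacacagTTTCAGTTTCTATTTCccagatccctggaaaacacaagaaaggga
Gbp7: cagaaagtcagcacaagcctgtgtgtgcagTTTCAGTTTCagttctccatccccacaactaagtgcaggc
B2m: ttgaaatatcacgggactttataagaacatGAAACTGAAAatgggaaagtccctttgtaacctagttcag
The core was present on either strand of the 250 bases before the start in 18 of the 49 interferon-induced genes with a promoter in the table (36.7%), and in 395 of 12630 tested genes (3.13%). The match nearest the start ends 113 bases before it in Ifit3, 30 in Gbp3 and 130 in B2m. These are matches of letters. Which of them a factor occupies was not measured.

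The ectonucleotidase named in the title of the series returned as well. Entpd1 (chr19:40612366-40741602) encodes CD39, the ectonucleotidase that turns extracellular ATP and ADP into AMP. It measured 8.43, 7.09, 7.21, 7.14 and 7.96 CPM on PLX3397 and 12.9, 15, 13.5, 12.6 and 14.1 CPM after repopulation. The groups did not overlap, the change was 0.85 ± 0.07 log2 units (edgeR adjusted p = 1.03e-09), and the level went from 55.3% to 99.5% of control. Nt5e, which encodes CD73, the enzyme that turns AMP into adenosine, measured 9.32, 10.5, 9.75, 8.88 and 9.68 CPM and 8.80, 12.5, 9.05, 8.85 and 12.2 CPM. Its groups overlapped, and it did not pass the test (log2 change 0.09 ± 0.12, edgeR adjusted p = 0.656).

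Of 32 tested ectonucleotidase, P2 receptor and adenosine genes, 8 rose and 1 fell. Those that rose were the microglial receptors P2ry12, P2ry13, P2ry6, P2rx7, Gpr34 and Adora3, with Entpd1 and Alpl, the tissue-nonspecific alkaline phosphatase. The lower gene was Adk, the kinase that clears adenosine (-0.33 log2 units, edgeR adjusted p = 3.88e-05). The other ectonucleotidases did not pass: Entpd2 changed by 0.04, Entpd3 by -0.03 and Enpp1 by 0.18 log2 units. The adenosine receptors Adora1 and Adora2a changed by -0.03 and -0.24 log2 units and did not pass either.

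In bulk cortex, 8 of 28 genes of vascular tone rose (28.6%, against 7.61% of all genes) and 2 fell (7.14%, against 8.98%). The number that rose was 5 without PLX3397 mouse 2 or 4 or repopulation mouse 4 or 5, and with length and GC trends removed. Ptgs1, the constitutive cyclooxygenase that microglia carry in brain, measured 10.3, 7.05, 9.16, 8.26 and 9.68 CPM on PLX3397 and 15.7, 17.5, 17.7, 15.6 and 17.0 CPM after repopulation, without overlap. Tbxas1, thromboxane synthase, rose by 3.17 ± 0.20 log2 units and Calcrl, the receptor of the dilator peptide CGRP, by 0.81 ± 0.11. Endothelial genes rose in 14 of 32 cases (43.8%) and fell in 2 (6.25%), with 9 rising without PLX3397 mouse 2 or 5 or repopulation mouse 3. Emcn, a venous and capillary sialomucin, went from 3.56, 3.14, 3.27, 2.87 and 3.96 CPM to 4.89, 4.58, 5.38, 5.47 and 5.40 CPM, back to 92.3% of control. Slco1a4, an organic anion transporter of the blood-brain barrier, rose by 0.48 ± 0.06 log2 units, and Rgs5, a pericyte marker, by 0.28 ± 0.04 log2 units. Cldn5, the tight-junction claudin, and Pecam1 did not pass the test (-0.11 and 0.09 log2 units).

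The oligodendrocyte lineage moved in opposite directions at its 2 ends. Oligodendrocyte precursors depend on PDGF receptor alpha, a kinase related to CSF1R. Whether PLX3397 acted on these cells directly was not tested. In the precursor list 15 of 24 genes were higher and 1 lower, with a median change of 0.34 log2 units. The median level was 74.9% of control on PLX3397 and 95.9% after repopulation. Pdgfra (chr5:75152292-75198215) measured 26.1, 24.7, 27.0, 16.1 and 32.0 CPM on PLX3397 and 57.4, 61.2, 65.9, 60.6 and 67.5 CPM after repopulation. The lowest depleted value was that of mouse 4, and the highest still lay well under every repopulation mouse. Cspg4, the NG2 proteoglycan, measured 14.1, 11.9, 13.3, 11 and 14.3 CPM and then 26.8, 26.3, 28.9, 26.8 and 27.0 CPM, a change of 1.07 ± 0.07 log2 units (edgeR adjusted p = 2.93e-12). Matn4, a matrix adaptor of these cells, rose by 1.39 ± 0.11 log2 units from 34.5% to 90.01% of control. Olig2 and Sox10, factors of the whole lineage, changed by 0.18 and 0.08 log2 units and did not pass the test.

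Genes of mature oligodendrocytes and myelin fell in 20 of 29 cases and rose in none, where 8.98% of all genes fell. Of these, 7 did not overlap between the groups, where 6.24% of all genes were lower without overlap. Their median went from 117% of control on PLX3397 to 94.1% after repopulation. Cldn11, the claudin of the myelin sheath, measured 208, 205, 203, 179 and 168 CPM on PLX3397 and 117, 118, 119, 126 and 138 CPM after repopulation. The groups were apart, and the fall was 1.56-fold (log2 change -0.64 ± 0.06, edgeR adjusted p = 1.41e-07), to 87.8% of control. Mal, a myelin proteolipid, went from 291, 293, 296, 305 and 249 CPM to 176, 184, 177, 193 and 232 CPM, with 1 depleted mouse (mouse 5) closest to the repopulation values. Tspan2, a tetraspanin of myelinating cells, changed by -0.43 ± 0.05 log2 units and returned to 102% of control. Mbp, the myelin basic protein, changed by -0.26 log2 units. Of 18 genes of differentiating oligodendrocytes 1 rose and 3 fell (16.7%, against 8.98% of all genes), and 6 fell without PLX3397 mouse 5.

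**Figure D4:**
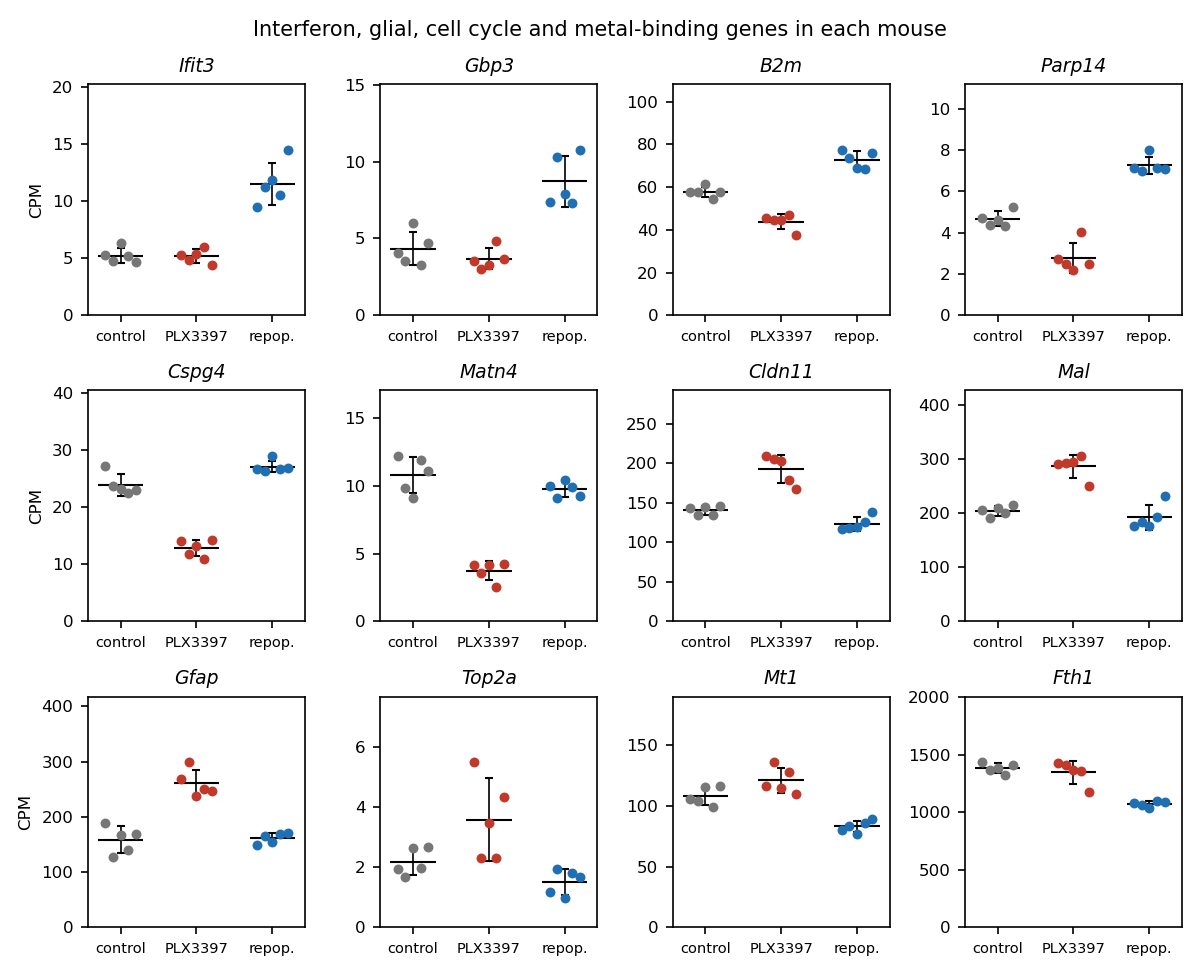
Level (CPM, linear axis from 0) in each mouse of 12 genes outside the microglial lists: interferon-responsive (Ifit3, Gbp3, B2m, Parp14), precursor (Cspg4, Matn4), myelin (Cldn11, Mal), astrocytic (Gfap), mitotic (Top2a) and metal-binding (Mt1, Fth1), with points for mice and the mean ± SD of 5. The repopulation group is the highest of the 3 for the interferon-responsive genes and returns to the control range for Gfap, which has a mean of 261 ± 23.8 CPM on PLX3397 and 162 ± 8.84 CPM after repopulation.

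Of 41 tested cell cycle genes 7 were lower after repopulation than on PLX3397 (17.1%, against 8.98% of all genes), none was higher and 34 did not pass the test. The median went from 116% of control to 90.3%, and the summed levels of the list overlapped, at 250.1 to 309 CPM on PLX3397 and 245 to 258 CPM after repopulation. Top2a (chr11:98992943-99024189), the topoisomerase that untangles DNA in dividing cells, measured 5.48, 2.29, 3.48, 2.32 and 4.34 CPM on PLX3397 and 1.18, 1.93, 0.964, 1.81 and 1.67 CPM after repopulation. The depleted mice spread widely, and the lowest still lay above the highest repopulation mouse (-1.23 ± 0.25 log2 units, edgeR adjusted p = 0.00163). Cenpf, a kinetochore protein, measured 1.64, 1.80, 1.85, 1.61 and 2.28 CPM and then 0.843, 0.848, 1.08, 0.639 and 1.11 CPM. Aspm, a spindle pole protein, changed by -1.16 ± 0.30 log2 units. Mki67, the proliferation antigen, measured 5.73, 4.13, 4.25, 2.87 and 4.95 CPM and 2.76, 2.82, 2.19, 3.09 and 3.41 CPM, with PLX3397 mouse 4 inside the repopulation range (-0.61 ± 0.15 log2 units, edgeR adjusted p = 0.00566). Ube2c, the ubiquitin enzyme of the anaphase-promoting complex, changed by -1.34 ± 0.36 log2 units, a call that was lost without PLX3397 mouse 3. None of these 5 genes passed the test against control. Of 31 DNA replication genes 2 fell (6.45%) and none rose.

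Windows of 3 of these promoters are shown because mitotic genes share the cell cycle homology region, the element bound by the DREAM complex. They are given as above, from RefSeq on GRCm38.p6, at chr11:99024190-99024242 (minus strand), chr7:135716442-135716507 (minus) and chr2:164769870-164769928 (plus), and capitals mark TTTGAA on either strand, which Mki67 holds at 2 places.
Top2a: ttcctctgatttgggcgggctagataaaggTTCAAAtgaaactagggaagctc
Mki67: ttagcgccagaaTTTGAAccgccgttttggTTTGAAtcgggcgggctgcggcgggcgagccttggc
Ube2c: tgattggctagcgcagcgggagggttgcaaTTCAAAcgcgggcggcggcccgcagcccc
TTTGAA was found in 10 of 34 cell cycle genes with a promoter in the table (29.4%) against 13% of all tested genes, and CCAAT, the box of the factor NF-Y, which does not overlap it, in 23 of 34 (67.6%) against 39.7%.

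Of 26 astrocyte genes 10 fell (38.5%, against 8.98% of all genes), 7 of them without overlap (6.24% of all genes), and 1 rose, with a median change of -0.04 log2 units. Gfap (chr11:102887336-102900912), the intermediate filament that reactive astrocytes make in excess, measured 268, 298, 238, 251 and 247 CPM on PLX3397 and 150, 165, 155, 168 and 170.3 CPM after repopulation, against 128 to 189 CPM in control. Every depleted mouse was above every repopulation mouse, the fall was 1.61-fold (log2 change -0.69 ± 0.10, edgeR adjusted p = 0.000297), and the mean returned to 102% of control. Thbs4, an astrocytic thrombospondin, went from 13.7 to 19.3 to 9.61 to 12.4 CPM. The reactive astrocyte list as a whole did not follow Gfap: 4 of 31 tested genes rose (12.9%) and 3 fell (9.68%, near the 8.98% of all genes). Of the risers, 3, Cd14, Cxcl10 and H2-D1, also stand in the microglial or interferon lists above or are known myeloid genes. Serpina3n and Vim, other genes of reactive astrocytes, changed by -0.46 and -0.27 log2 units, of which that of Vim passed (edgeR adjusted p = 0.00365).

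Many small falls lay in genes that every cell uses. Cytosolic ribosomal proteins fell in 54 of 78 tested cases and rose in none, with a median of -0.22 log2 units, and 34 fell when PLX3397 mouse 2 was left out, 35 without repopulation mouse 3. Rpl3, a large-subunit protein, measured 211, 237, 202, 221 and 198 CPM on PLX3397 and 171, 185, 172, 173 and 179 CPM after repopulation. No values overlapped, although the drop was only 1.21-fold. Against control 75 of the 78 were lower, and the median moved away from control, from 88.1% on PLX3397 to 76.2% after repopulation. Respiratory chain and ATP synthase genes fell in 58 of 76 cases, among them Ndufv1, a complex I subunit (-0.25 ± 0.04 log2 units), and 66 of the 76 were lower than control. Proteasome genes fell in 23 of 37, and the 2 that rose, Psmb8 and Psmb9, are immunoproteasome subunits.

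These calls moved with transcript length. With genes ranked by exonic length into 4 equal bins, from the shortest to the longest, 3.28, 5.33, 8.39 and 13.9% of genes rose, and 10.8, 12.7, 8.46 and 4.53% fell. When trends with length and GC were taken out, 36 ribosomal, 40 respiratory and 14 proteasome genes still fell. Over 4 bins of GC content the share that rose went from 5.18% to 10.4%. Genes of chromatin methylation and remodelling rose in 24 of 50 cases with a median of 0.11 log2 units, and in 2 with these trends taken out. That count also fell to 13 without PLX3397 mouse 2, to 14 without PLX3397 mouse 4 and to 15 without repopulation mouse 2. The part of RNA quality in these small changes was not tested.

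The 8 genes outside the 9 myeloid lists with the smallest adjusted p among the falls were Cldn11 and Tspan2 of myelin, given above, Mt1, Fth1, Tpi1, Atp6v0d1, Atp6v1e1 and Rbbp4, a histone-binding protein of chromatin complexes (-0.26 ± 0.04 log2 units). Mt1, a metallothionein that binds zinc and copper, measured 117, 136, 115, 128 and 109.9 CPM on PLX3397 and 80.4, 83.5, 76.8, 85.8 and 89.0 CPM after repopulation. Each depleted mouse was above each repopulation mouse (-0.54 ± 0.06 log2 units, edgeR adjusted p = 4.91e-07), and the level ended at 76.9% of control. Mt2 changed by -0.59 ± 0.12 log2 units. Fth1, the ferritin heavy chain that stores iron, went from 1177 to 1428 CPM to 1036 to 1101 CPM, with PLX3397 mouse 5 the lowest of its group. It ended at 77.6% of control, and Tpi1, a glycolytic isomerase, at 76.9%. Atp6v0d1 and Atp6v1e1, subunits of the proton pump that acidifies lysosomes, changed by -0.24 ± 0.03 and -0.24 ± 0.03 log2 units. Hspa8, the constitutive HSP70 chaperone, measured 1107, 1065, 908, 1124 and 873 CPM and then 770.3, 806, 771, 787 and 719 CPM, at 70.9% of control. Of 20 heat shock genes 7 fell and 1 rose. The number that fell was 11 with only the 10 libraries compared, 4 with length and GC trends removed or without PLX3397 mouse 1 or 4 or repopulation mouse 3, and 3 without repopulation mouse 4.

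Of 43 lysosomal genes 14 rose (32.6%, against 7.61% of all genes). The 4 that fell (9.30%) were near the 8.98% of all genes. Among those that rose were genes that macrophages express strongly, Ctss and Cd68, a lysosomal sialomucin (1.89 ± 0.12 log2 units), whereas Lamp1 and Ctsb, expressed by all cells, changed by -0.11 and -0.13 log2 units and were among those that fell. Grn, the progranulin gene, was chosen after its values were seen and went from 77.2% to 121% of control.

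Among neuronal genes, 2 of 18 excitatory neuron genes fell (11.1%) and none rose, and of 24 inhibitory neuron and neuropeptide genes 1 rose and 2 fell (8.33%), where 8.98% of all genes fell. The excitatory falls were 4 without PLX3397 mouse 5 and 0 with the replicate block. Of 36 glutamate and GABA receptor subunits 3 rose (8.33%, against 7.61% of all genes) and 1 fell; 6 rose without PLX3397 mouse 5, and 1 rose without PLX3397 mouse 4 or with length and GC trends removed, where 4 fell. Cck, the cholecystokinin neuropeptide, changed by -0.27 ± 0.05 log2 units (edgeR adjusted p = 0.000553), with overlapping groups. Of 24 synaptic vesicle and active zone genes 3 rose and 3 fell (12.5% each), with a median change of 0.03 log2 units. Rab3a, a GTPase of synaptic vesicles and the member furthest from that median, changed by -0.23 ± 0.03 (edgeR adjusted p = 9.01e-06). Pclo of the same list rose by 0.13 ± 0.03, a call lost with length and GC trends removed. Genes of the perineuronal net and matrix rose in 8 of 21 cases, and in 5 with length and GC trends removed. Among the 8 were Vcan, the proteoglycan versican, at 0.74 ± 0.09 log2 units and Bcan, brevican, at 0.17 ± 0.03. Ptprz1, which rose by 0.30 ± 0.04 log2 units, also stands in the oligodendrocyte precursor list. Which cells gave these rises was not tested. Of 34 neuronal activity-induced genes, 1 rose, the transcription factor gene Jun. Their median level was 77.3% of control on PLX3397 and 81.6% after repopulation, and 10 were still called lower than control.

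In sterol synthesis 6 of 24 genes fell, 3 of them without repopulation mouse 1. Fdft1, squalene synthase, changed by -0.29 ± 0.04 log2 units. The 14 striatal and 9 hippocampal genes gave no call, with striatal sums of 1423 to 1858 CPM on PLX3397 and 1242 to 2136 CPM after repopulation. None of the 11 tested choroid plexus genes was called with all mice, and their sum ran from 18.6 to 234 CPM on PLX3397 and from 12.5 to 605 CPM after repopulation, with repopulation mouse 4 at the top; 5 were called lower when that mouse was left out. Their part in the other results was not tested. Without that mouse, 1125 genes rose and 1281 fell. In the fits that left out 1 mouse, 22 homeostatic and 45 to 51 interferon-induced genes were called higher.

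**Figure D5:**
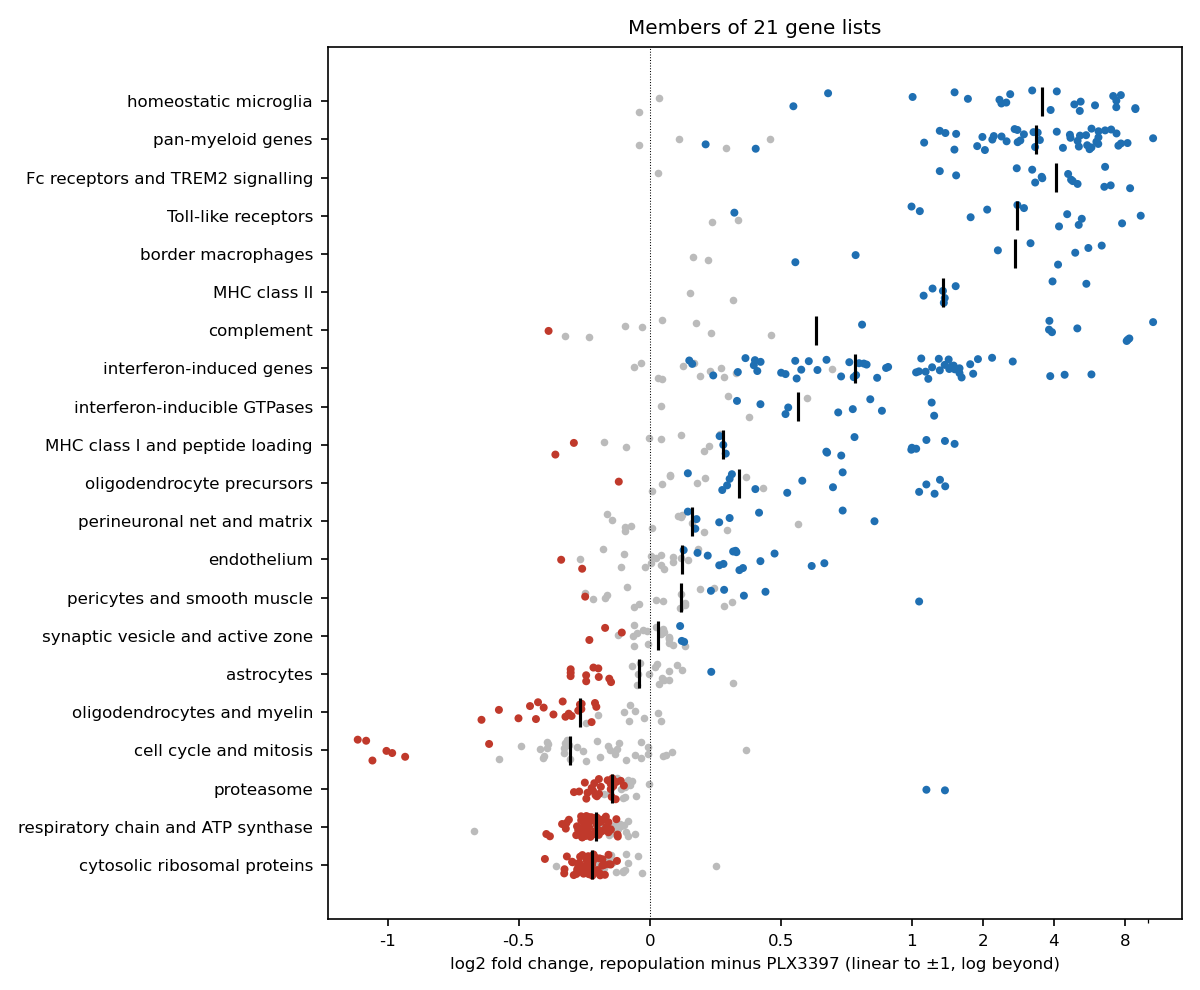
Change from PLX3397 to repopulation (log2 units, x axis linear to ±1 and logarithmic beyond) of each tested member of 21 gene lists, 1 line per list; blue points rose, red points fell, grey points did not pass the test, and black ticks are medians. Microglial lists reach to the right, interferon-induced genes sit mostly right of 0 with a median of 0.78, and myelin, ribosomal and respiratory genes sit just left of 0.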

How the data were processed

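Bulk RNA sequencing of cortex gave 1 library per mouse in 3 groups of 5. The deposited values are raw read counts, whole numbers per gene symbol. The submitters' processing notes name STAR, FastQC, MultiQC, DESeq and DESeq2 and the build mm10, without roles. The counting tool, the annotation and whether strand was used are not given in the sources used. Columns carry the group and mouse number of the labels.

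Genes were kept with edgeR's filterByExpr, libraries were scaled with TMM factors, and edgeR 4.0.16 (R 4.3.3) fitted a robust quasi-likelihood model to all 15 libraries with no covariate, since the labels name no batch. The contrast of repopulation with PLX3397 was tested with a Benjamini-Hochberg threshold of 0.05 over all genes tested, and the contrast with control, which shares the repopulation libraries, is given beside it. Log2 fold changes carry the SE of the fit and CPM values the SD over 5 mice. A gene with no read in a group was set against a floor of 3 reads over the group. Such floors cover counting error only. Exon lengths, GC content and coordinates came from GENCODE release 21 on GRCm38, which held 93.1% of the symbols. The steps were tested on simulated data.

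The members, the 47 gene lists and the rule for named genes were chosen with earlier results of these data known, so list counts are descriptions beside the share of all genes called. The rule takes Csf1r, Cx3cr1, P2ry12, Tmem119, Entpd1 and Nt5e, the 12 largest changes in each direction among called genes at a mean of at least 1 CPM, the 8 smallest adjusted p in each direction outside the 9 myeloid lists, and in each list up to 3 called members (5 in myeloid lists) and the member furthest from the median. Genes named beside it are said to be chosen after their values were seen, or are listed members given as examples of a count. Of the 176 genes the rule names, 90 overlap another annotated gene, and their counts are uncertain for want of strand. Not every gene of the rule is reported, and some results are not reported here. Alternatives were DESeq2 size factors, the Wald test of DESeq2 1.42.0, no filter on low counts, only the 10 libraries compared, the mouse number as a block, removal of length and GC trends with splines, and leaving out each mouse. Library pairs were checked for duplicates: 0 were identical, and libraries of a group differed by 2.53 to 9.95 chi-square units per degree of freedom.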

Additional observations from a re-analysis of the deposited data

Results flagged for a closer look

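For 173 of the 176 genes that the rule names, whether or not they appear above, the highest or lowest mouse of the PLX3397 and of the repopulation group was set against its nearest neighbour, and a gap above 0.71 of the whole range of the 5 mice marked the group. Of 346 groups examined 31 were marked, where chance marks about 1 in 20. PLX3397 mouse 1 was the highest of its group by a wide gap for Csf1r (0.427 CPM, group mean 0.215 CPM) and Tbxas1 (0.391 CPM, group mean 0.290 CPM). PLX3397 mouse 2 was the highest of its group by a wide gap for Dsp (8.11 CPM, group mean 2.07 CPM). PLX3397 mouse 3 was the highest of its group by a wide gap for Il1a (0.279 CPM, group mean 0.0783 CPM). PLX3397 mouse 3 was the lowest of its group by a wide gap for Hsd17b7 (27.9 CPM, group mean 29.7 CPM). PLX3397 mouse 4 was the highest of its group by a wide gap for Stab1 (3.59 CPM, group mean 2.30 CPM), H2-Oa (0.0341 CPM, group mean 0.00683 CPM), Cd74 (1.71 CPM, group mean 1.21 CPM) and Parp14 (4.03 CPM, group mean 2.78 CPM). PLX3397 mouse 4 was the lowest of its group by a wide gap for Bhlhe41 (27.3 CPM, group mean 30.4 CPM). PLX3397 mouse 5 was the highest of its group by a wide gap for H2-Ob (0.129 CPM, group mean 0.0329 CPM) and Ifi207 (0.0430 CPM, group mean 0.00860 CPM). PLX3397 mouse 5 was the lowest of its group by a wide gap for Tmem119 (0.731 CPM, group mean 1.1 CPM), Fth1 (1177 CPM, group mean 1349.8 CPM), B2m (37.5 CPM, group mean 43.8 CPM) and Mal (249 CPM, group mean 287 CPM). Repopulation mouse 2 was the highest of its group by a wide gap for Ccl6 (0.984 CPM, group mean 0.583 CPM). Repopulation mouse 3 was the highest of its group by a wide gap for Parp14 (7.97 CPM, group mean 7.26 CPM), Gbp7 (9.27 CPM, group mean 8.09 CPM) and Cspg4 (28.9 CPM, group mean 27.2 CPM). Repopulation mouse 4 was the highest of its group by a wide gap for Thbs4 (12.4 CPM, group mean 10.5 CPM), Arc (307 CPM, group mean 178 CPM), Dnajb5 (185 CPM, group mean 155 CPM), Ezh2 (6.96 CPM, group mean 6.26 CPM) and Calml4 (1.49 CPM, group mean 0.439 CPM). Repopulation mouse 4 was the lowest of its group by a wide gap for P2ry12 (24.9 CPM, group mean 26.9 CPM). Repopulation mouse 5 was the highest of its group by a wide gap for Rasal3 (5.92 CPM, group mean 4.86 CPM), Tspan2 (142 CPM, group mean 123 CPM) and Laptm5 (33.2 CPM, group mean 30.5 CPM). Repopulation mouse 5 was the lowest of its group by a wide gap for Lamp5 (154 CPM, group mean 162 CPM) and Syp (714 CPM, group mean 759 CPM). Several of these genes are at few reads on PLX3397. The call of each gene named in the text as risen or fallen is given with these mice included.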

How the results depend on the processing

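The counts of genes called higher and lower against PLX3397 moved by less than 1.5 times under every alternative: 989 to 1522 higher and 1475 to 1779 lower under the other settings, and 1082 to 1708 higher and 1234 to 1994 lower when 1 mouse was left out, with the highest of each without PLX3397 mouse 5, the shallowest library. Against control, the 2548 higher genes became 1686 with length and GC trends taken out, and ran from 2079 to 2428 with 1 mouse left out (2476 to 2793 lower). Mouse numbers did not pair the libraries: deviations of same-numbered libraries correlated at -0.04 to 0.10 and of others at -0.10 to 0.09, and 2 of the 10 libraries correlated best with their own number. With the number as a replicate block 1312 genes were higher and 1489 lower against PLX3397, and 2410 and 2670 against control. No called gene that the rule names changed sign. Of those not called, Dsp turned to 0.86 log2 units without PLX3397 mouse 2 (-1.90 to 0.86 over the mice left out), and Rpl3l to -0.03 without PLX3397 mouse 5 and -0.11 without repopulation mouse 5 (-0.11 to 0.74). Over the leave-outs, 3 to 12 of the 158 called genes lost their call, as did 12 with length and GC trends taken out, 3 with the block, 3 without the filter and 3 with only the 10 libraries. Of 29 gene list counts of 1 to 3 calls, 24 moved by over 1.5 times when some 1 mouse was left out; of 32 larger ones 9 moved so under some alternative, each given beside its list. Levels under about 1 CPM rest on few reads, which limits what can be said of cytokines, interferons and leukocyte markers.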
